A study of Homo sapiens with 10 samples.

Results

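The genes described here are 10 host genes of small nucleolar RNAs (snoRNAs): SNHG1, SNHG3, SNHG5, SNHG6, SNHG8, SNHG12, SNHG15, SNHG16, GAS5 and ZFAS1. They were taken by name, as the rows of the deposited count table whose Ensembl identifier carries 1 of these symbols. They are 10 of 63140 gene identifiers, and all 10 passed the filter on low counts, which left 16382 genes to test. The cells were the established line HS-SY-II, from a human synovial sarcoma, a tumour type defined by the fusion of SS18 with an SSX gene. They received WA-68 at 100 nM, a PROTAC that targets BRD9 for degradation, during 12, 24, 48 or 96 h, or the vehicle DMSO. Each of the 5 groups held 2 libraries, which the labels call biological replicates, and the DMSO cultures carry no harvest time in the labels, so time in culture and treatment cannot be told apart. All groups are of 1 line, and no other compound is among them. BRD9 has a bromodomain and belongs to the non-canonical BAF complex, a chromatin remodeller that also holds SS18.

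A snoRNA host gene is transcribed by RNA polymerase II and spliced, and the snoRNAs are trimmed out of its introns. Box C/D snoRNAs guide 2′-O-methylation of ribosomal RNA and box H/ACA snoRNAs guide its pseudouridylation, while a few take part in cleavage of the ribosomal RNA precursor. The exons of hosts such as GAS5 are joined into a polyadenylated RNA with little coding capacity. Several of these spliced RNAs begin with a run of pyrimidines, like the mRNAs of ribosomal proteins, and are degraded by nonsense-mediated decay once ribosomes engage them. Poly(A) libraries measure the spliced exonic RNA of the hosts and capture mature snoRNAs poorly, since these have no poly(A) tail. A lower exonic level can come from less transcription or from faster decay, and these libraries cannot tell the causes apart.

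RefSeq (GRCh38.p14) gave a promoter window of 300 bases, 250 before and 50 after the annotated start, for 8 of the 10 genes, all but SNHG6 and SNHG15. The windows of SNHG16 and ZFAS1, whose levels ran most alike over the libraries, are shown beside those of SNHG1 and SNHG3, which were called lower at every time. That of SNHG5 is shown as the window of a gene called at 96 h only. SNHG8 was also called at 96 h only, and its window is not printed, but its NRF1 core is given below. All are written 5′ to 3′ on the strand of the gene: SNHG16 at chr17:76557514-76557813 (plus), ZFAS1 at chr20:49278392-49278691 (plus), SNHG1 at chr11:62855836-62856135 (minus), SNHG3 at chr1:28505693-28505992 (plus) and SNHG5 at chr6:85678684-85678983 (minus). Capitals mark motif matches and, near the start, a pyrimidine run.
SNHG16: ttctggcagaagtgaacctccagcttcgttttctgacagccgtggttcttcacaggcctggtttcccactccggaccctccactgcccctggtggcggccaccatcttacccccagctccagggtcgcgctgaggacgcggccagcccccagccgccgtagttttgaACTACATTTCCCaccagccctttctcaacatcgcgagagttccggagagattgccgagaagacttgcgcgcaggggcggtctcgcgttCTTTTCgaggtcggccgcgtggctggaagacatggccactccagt
ZFAS1: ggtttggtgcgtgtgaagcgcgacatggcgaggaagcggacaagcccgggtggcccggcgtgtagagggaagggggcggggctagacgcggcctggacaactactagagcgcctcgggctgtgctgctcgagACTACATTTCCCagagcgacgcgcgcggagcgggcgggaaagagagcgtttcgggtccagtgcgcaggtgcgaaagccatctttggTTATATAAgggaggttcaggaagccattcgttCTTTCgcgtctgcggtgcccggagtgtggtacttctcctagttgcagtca
SNHG1: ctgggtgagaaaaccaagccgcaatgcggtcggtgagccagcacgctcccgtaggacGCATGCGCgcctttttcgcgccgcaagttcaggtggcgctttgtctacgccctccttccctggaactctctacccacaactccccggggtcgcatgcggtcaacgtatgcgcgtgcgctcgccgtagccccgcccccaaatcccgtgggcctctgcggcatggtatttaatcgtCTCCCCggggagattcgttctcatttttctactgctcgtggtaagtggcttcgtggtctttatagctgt
SNHG3: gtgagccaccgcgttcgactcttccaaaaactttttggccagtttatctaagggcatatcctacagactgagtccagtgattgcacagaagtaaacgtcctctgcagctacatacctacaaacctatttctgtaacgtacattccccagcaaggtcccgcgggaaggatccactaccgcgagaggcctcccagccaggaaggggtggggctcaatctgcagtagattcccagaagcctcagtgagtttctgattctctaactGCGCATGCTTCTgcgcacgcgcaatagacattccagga
SNHG5: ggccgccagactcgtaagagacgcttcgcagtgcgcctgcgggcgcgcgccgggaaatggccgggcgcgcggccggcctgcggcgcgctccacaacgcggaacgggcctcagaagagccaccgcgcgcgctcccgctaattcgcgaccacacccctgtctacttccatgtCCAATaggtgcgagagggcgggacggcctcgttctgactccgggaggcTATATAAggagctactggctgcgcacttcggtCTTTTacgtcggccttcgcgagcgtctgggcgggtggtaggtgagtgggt

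The motifs were chosen after these sequences had been seen, and each was searched on both strands. The ZNF143 motif (ACTACA, any 2 bases, then TCCC) was in the windows of SNHG12, SNHG16 and ZFAS1, 3 of 8, and in 1.75% of all 35116 RefSeq windows of this length. The NRF1 core (GCATGCGC) was in those of SNHG1, SNHG3 and SNHG8, 3 of 8, beside 3.05% of all windows. A TATA element (TATATAA) was in SNHG5, SNHG12 and ZFAS1, 3 of 8, beside 2.57%, and in ZFAS1 its matches on the 2 strands overlap. The CCAAT box (CCAAT) was in SNHG5 and GAS5, 2 of 8, beside 34.6%. The E-box (CACGTG), a sequence that MYC can bind, was in 0 of 8 windows beside 7.26%, and the ETS core (CCGGAAG) in 0 of 8 beside 10.3%. A run of at least 5 pyrimidines that opens with C and begins within 20 bases of the annotated start, on the gene's strand, was in 7 of 8, all but GAS5, beside 51% of all windows. The start used is that of RefSeq, which differs from the GENCODE gene start behind the gene coordinates given below, most in SNHG12, ZFAS1 and GAS5, so this count holds for the RefSeq starts alone. In SNHG5 and ZFAS1 the run began at the RefSeq start itself. In SNHG3 the NRF1 core and the pyrimidine run share 1 base. A match describes the letters of a window and was not tested as a binding site.

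Counts assigned to genes ran from 7349744 to 13200051 per library. The fusion partners SS18 and SSX1 and the synovial sarcoma markers TLE1, BCL2 and CD99 were detected in all 10 libraries, while 10 leukocyte, endothelial and muscle markers held at most 6 counts each over all libraries, with PTPRC, CD3E, PECAM1, MYOD1 and MYOG at 0. BRD9 mRNA, whose protein WA-68 targets, was not called at any time (adjusted p = 0.0935 at 96 h). DMSO replicate 2 and 96 h replicate 2 stood apart from the other 8 on the second principal component, at -24.2 and -26.0 beside -0.71 to 14.4. The difference between the 2 DMSO libraries, replicate 2 minus replicate 1, followed transcript GC content across genes (Spearman 0.57 over 15694 genes). The same correlation was 0.29 at 96 h, -0.29 at 48 h, -0.17 at 24 h and -0.06 at 12 h. It was positive only in DMSO and at 96 h, the groups whose replicate 2 stood apart. At 48 h it was as large as at 96 h, with the opposite sign. Whether GC content accounts for the libraries that stand apart was not tested. Mitochondrial transcripts took 10.9% of counts in 96 h replicate 2 and 6.79% to 8.75% in the others. Median GC content was 46.8% over the 10 hosts and 48.4% over the tested genes.

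Together the 10 hosts took 0.114% and 0.103% of all counts in the DMSO libraries, 0.0814% and 0.0711% at 96 h, and between 0.0849% and 0.0912% at the times between. Within a host the counts were ample: single-library counts ran from 105 (SNHG8, 96 h replicate 2) to 4208 (SNHG16, DMSO replicate 1). Levels are given below as CPM, counts scaled to library size with TMM factors, for replicate 1 and then replicate 2. In this bulk RNA, a lower level can reflect less of the RNA in each cell or fewer cells that make it, and these cannot be told apart.

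Per length, as CPM per kb of the union of annotated exons in DMSO, SNHG16 (61.0 and 57.5) and ZFAS1 (57.7 and 59.2) were highest, with overlapping libraries. GAS5 (54.7 and 46.7), SNHG6 (47.1 and 36.7), SNHG3 (42.1 and 39.2) and SNHG5 (40.1 and 30.2) followed, each overlapping the next in this order. SNHG8 (23.6 and 22.3), SNHG1 (21.8 and 21.2), SNHG15 (10.2 and 10.9) and SNHG12 (7.69 and 6.82) were lowest and did not overlap. The order depends on the length used: per kb of the longest transcript, ZFAS1 (122), GAS5 (108) and SNHG5 (95.7) headed it and SNHG15 (12.3) closed it. At 96 h the mean level per kb of exon union was lower in every host, from 59.3 to 40.3 in SNHG16, 58.4 to 40.0 in ZFAS1 and 10.5 to 5.49 in SNHG15, and least so in SNHG6, from 41.9 to 39.1.

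Each time was compared with the same 2 DMSO libraries, so the 4 comparisons are not independent of each other. Adjusted p-values are from edgeR's quasi-likelihood F test, with Benjamini-Hochberg adjustment over the 16382 tested genes of a comparison, and a gene was called under 0.05. At 12 h, 4 of the 10 hosts were called lower (SNHG1, SNHG3, SNHG15 and ZFAS1) where 1.92% of all tested genes were called lower. At 24 h, 4 were called lower (SNHG1, SNHG3, SNHG15 and SNHG16) beside 2.25% of tested genes. At 48 h, 7 were called lower, all but SNHG5, SNHG6 and SNHG8, beside 5.38%. At 96 h, 9 were called lower, all but SNHG6, beside 6.86%. Called higher were 0 hosts at each of the 4 times, beside 1.23%, 1.34%, 4.01% and 6.14% of tested genes. The median log2 fold change of the hosts was -0.32, -0.33, -0.36 and -0.54 at 12, 24, 48 and 96 h, where the median over all tested genes was -0.0021, -0.00085, -0.0070 and -0.0083. Both treated libraries lay below both DMSO libraries for 8, 9, 9 and 9 hosts, beside 22.1%, 23%, 25.2% and 25% of tested genes. A joint test of the 4 times called 8 of 10, all but SNHG6 and SNHG8, beside 10.9% of tested genes.

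**Figure D1:**
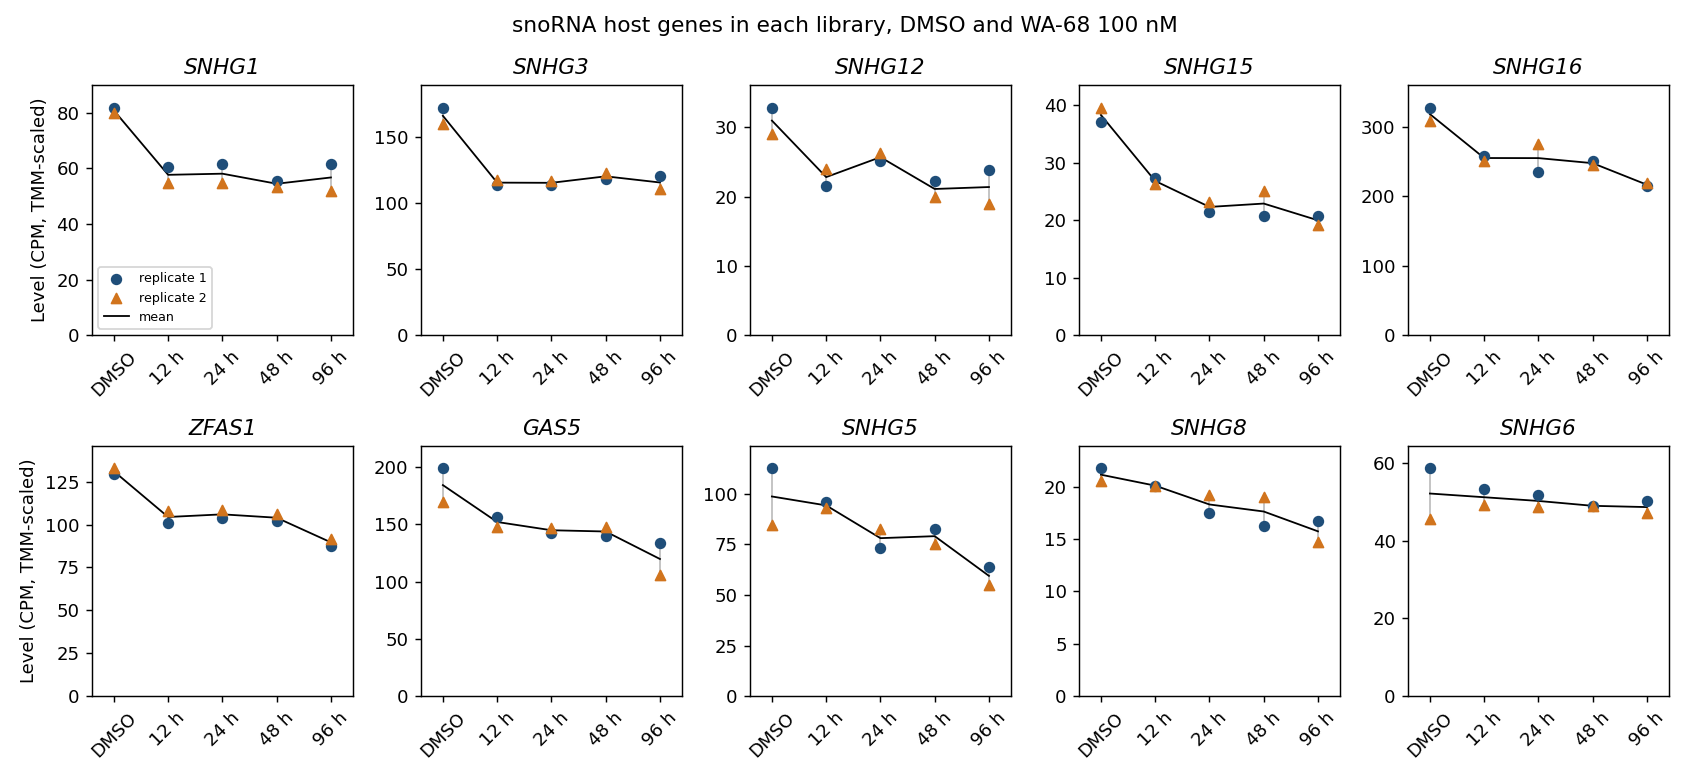
Level of each host gene in each library, in TMM-scaled CPM from an axis starting at 0, for DMSO and the 4 times of 100 nM WA-68. Circles are replicate 1, triangles replicate 2, and the line joins the means of n = 2. SNHG1, SNHG3 and SNHG15 were already lower at 12 h, SNHG5 was lowest at 96 h, and the 2 DMSO libraries of SNHG5 and SNHG6 lay far apart.

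Without DMSO replicate 2 and 96 h replicate 2, an alternative added after the data were seen, 7, 7, 8 and 8 hosts were called at 12, 24, 48 and 96 h, all lower. With an offset for GC content and all 10 libraries, 7, 7, 8 and 9 were called, all lower. Leaving out any 1 library gave 0 to 6 calls at 12 h, 2 to 6 at 24 h, 3 to 8 at 48 h and 7 to 9 at 96 h. The 0 at 12 h came without 12 h replicate 1, and 1 remained without 12 h replicate 2. The 2 at 24 h came without 24 h replicate 2, while 6 were called there without DMSO replicate 2 or 96 h replicate 2. At 48 h, 4 were called without 48 h replicate 1 and 3 without 48 h replicate 2.

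Among the hosts that carry mainly box C/D snoRNAs, SNHG1 lies on the minus strand of chromosome 11 (chr11:62851988-62855914) and holds 9 snoRNAs in RefSeq, 8 of them box C/D by name, SNORD22 and the SNORD25 to SNORD31 series among them. Its level was 81.8 and 79.8 CPM with DMSO, then 60.6 and 54.7, 61.4 and 54.7, 55.5 and 53.4, and 61.6 and 51.8 after 12, 24, 48 and 96 h. All 8 treated libraries lay below both DMSO libraries, and the level was as low at 12 h as later. It fell by 0.49 ± 0.10 (SE) on the log2 scale at 12 h (adjusted p = 0.00744), 0.48 at 24 h (0.00718), 0.57 at 48 h (0.000917) and 0.50 at 96 h (0.00137). The call at 12 h was lost without 12 h replicate 1 (adjusted p = 0.056) or replicate 2 (0.196), and that at 24 h without 24 h replicate 2 (0.249). Those at 48 and 96 h held without any 1 library.

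SNHG16, which holds SNORD1A, SNORD1B and SNORD1C, lies on the plus strand of chromosome 17 (chr17:76557766-76565348) and had the highest level in CPM. It measured 327 and 309 CPM with DMSO, then 258 and 251, 235 and 274, 250 and 244, and 214 and 218 after 12, 24, 48 and 96 h. No treated library reached the DMSO libraries, and the lowest values were both at 96 h. The log2 fold change was -0.32 at 12 h (adjusted p = 0.0511, not called), and the gene fell by 0.32 at 24 h (0.0471), 0.36 at 48 h (0.0119) and 0.56 ± 0.09 (SE) at 96 h (0.000166). At 24 h the call was lost without DMSO replicate 1 or any 1 library of the 12, 24 or 48 h groups (adjusted p up to 0.541), and at 48 h without 48 h replicate 1 (0.0682) or replicate 2 (0.154). At 96 h it held without any 1 library.

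ZFAS1 holds SNORD12, SNORD12B and SNORD12C and lies on the plus strand of chromosome 20 (chr20:49278178-49295738), beginning antisense to the 5′ end of ZNFX1. Its level was 129 and 133 CPM with DMSO, then 101 and 108, 104 and 108, 102 and 106, and 87.6 and 91.6 after 12, 24, 48 and 96 h. It stepped down at 12 h, lay within 101 to 108 CPM to 48 h, and was lowest at 96 h, with no overlap between treated and DMSO libraries. It fell by 0.33 on the log2 scale at 12 h (adjusted p = 0.0406), 0.33 at 48 h (0.0179) and 0.55 ± 0.09 (SE) at 96 h (0.000166), and the log2 fold change at 24 h was -0.31 (0.0542, not called). The call at 12 h was lost without DMSO replicate 2 or any 1 library of the 12, 24 or 48 h groups (adjusted p up to 0.416). That at 48 h was lost without 24 h replicate 2 (0.0508), 48 h replicate 1 (0.156) or 48 h replicate 2 (0.125), and that at 96 h held without any 1 library.

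GAS5 was named for its RNA being raised in growth-arrested cells, and its exonic RNA is known to bind the glucocorticoid receptor. It lies on the minus strand of chromosome 1 (chr1:173863900-173868882) and holds 11 snoRNAs, 10 of them box C/D, more than any other host here. Its level was 199 and 170 CPM with DMSO, then 157 and 147, 143 and 147, 140 and 147, and 134 and 106 after 12, 24, 48 and 96 h. The treated libraries all lay below DMSO, and the 2 libraries at 96 h differed more than those at any other treated time. The log2 fold change was -0.28 at 12 h (adjusted p = 0.166) and -0.35 at 24 h (0.0638), neither called, and the gene fell by 0.36 at 48 h (0.0308) and 0.62 ± 0.11 (SE) at 96 h (0.000268). The call at 48 h was lost without DMSO replicate 1, 12 h replicate 1 or 2, 24 h replicate 2, or 48 h replicate 1 or 2 (adjusted p up to 0.203), and that at 96 h held without any 1 library. Without both libraries that stand apart, GAS5 was called at 12 h (0.00312) and 24 h (0.000491).

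SNHG5, on the minus strand of chromosome 6 (chr6:85660950-85678748), holds SNORD50A and SNORD50B. Its level was 113 and 84.9 CPM with DMSO, then 95.8 and 92.8, 73.5 and 82.8, 82.9 and 75.4, and 63.8 and 55.1 after 12, 24, 48 and 96 h. At 12 h both libraries lay between the 2 DMSO libraries, and at 24, 48 and 96 h all lay below both. The log2 fold change was -0.07 at 12 h (adjusted p = 0.817), -0.34 at 24 h (0.0976) and -0.33 at 48 h (0.0753), none called, and the gene fell by 0.73 ± 0.12 (SE) at 96 h (0.000119). The call at 96 h held without any 1 library. Without DMSO replicate 2, SNHG5 was called at 24 h (0.00402) and 48 h (0.00282), and without 96 h replicate 2 it was called at 48 h (0.0498). Without DMSO replicate 1 the log2 fold change at 12 h was 0.15.

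SNHG6, on the minus strand of chromosome 8 (chr8:66921684-66926398), holds SNORD87, and it was the host that was not called at any time. Its level was 58.7 and 45.7 CPM with DMSO, then 53.3 and 49.2, 51.9 and 48.7, 49.0 and 49.1, and 50.3 and 47.1 after 12, 24, 48 and 96 h. All 8 treated libraries lay between the 2 DMSO libraries. The log2 fold change was -0.04 at 12 h (adjusted p = 0.917), -0.07 at 24 h (0.826), -0.10 at 48 h (0.648) and -0.11 ± 0.11 (SE) at 96 h (0.589). Without DMSO replicate 1 it was above 0 at each time, from 0.09 at 96 h to 0.16 at 12 h, and again not called.

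**Figure D2:**
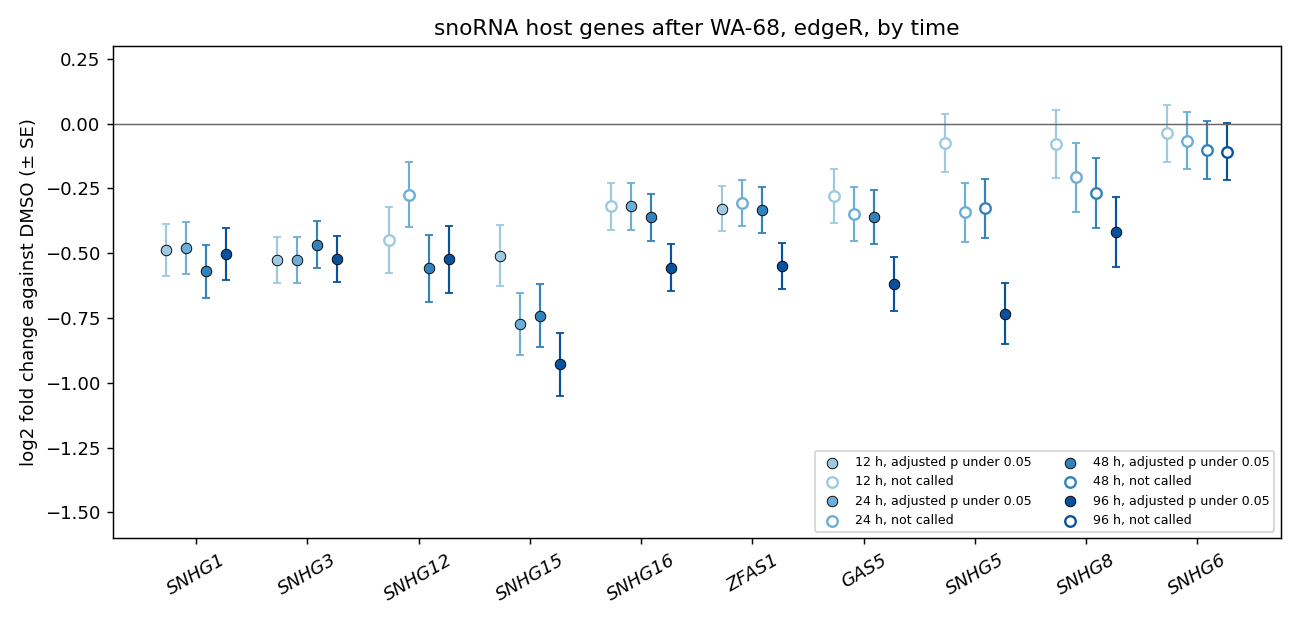
log2 fold change against DMSO of each host gene, with bars of 1 SE from edgeR, for 12, 24, 48 and 96 h from light to dark. Filled points are called (adjusted p under 0.05) and open points are not. SNHG1 and SNHG3 lay near -0.5 at each time, SNHG15 reached -0.93 and SNHG5 -0.73 at 96 h, and SNHG6 was not called at any time.

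Among the hosts with box H/ACA snoRNAs, SNHG3 holds SNORA73A and SNORA73B, the U17 snoRNAs that act in ribosomal RNA cleavage. It lies on the plus strand of chromosome 1 (chr1:28505980-28510892). Its level was 172 and 160 CPM with DMSO, then 114 and 118, 114 and 117, 118 and 122, and 121 and 111 after 12, 24, 48 and 96 h. The 8 treated libraries lay within 111 to 122 CPM, all below DMSO, with no order among the times. It fell by 0.53 ± 0.09 (SE) on the log2 scale at 12 h (adjusted p = 0.00117), 0.53 at 24 h (0.00122), 0.47 at 48 h (0.00165) and 0.52 at 96 h (0.000288). Only the call at 12 h was lost on leaving out a library, 12 h replicate 1 (0.0653).

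SNHG15, on the minus strand of chromosome 7 (chr7:44983023-44986961), holds SNORA9 and had the largest fall of the 10 at 24, 48 and 96 h. Its level was 37.1 and 39.6 CPM with DMSO, then 27.4 and 26.3, 21.5 and 23.2, 20.8 and 25.0, and 20.8 and 19.2 after 12, 24, 48 and 96 h, the last mean being 52.2% of DMSO. The treated and DMSO libraries did not overlap, and both libraries at 12 h lay above all later ones. It fell by 0.51 ± 0.12 (SE) on the log2 scale at 12 h (adjusted p = 0.0151), 0.77 at 24 h (0.000437), 0.74 at 48 h (0.000354) and 0.93 ± 0.12 at 96 h (1.54e-05). The call at 12 h was lost without 12 h replicate 1 (0.132) or replicate 2 (0.19), and those at the other 3 times held without any 1 library.

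SNHG12, on the minus strand of chromosome 1 (chr1:28578538-28583132), holds SNORA16A, SNORA44 and SNORA61 with the box C/D SNORD99. Its level was 32.8 and 29.1 CPM with DMSO, then 21.6 and 24.0, 25.1 and 26.2, 22.2 and 19.98, and 23.8 and 18.9 after 12, 24, 48 and 96 h. The treated libraries lay below DMSO at each time. The log2 fold change was -0.45 at 12 h (adjusted p = 0.0566) and -0.27 at 24 h (0.272), neither called, and the gene fell by 0.56 ± 0.13 (SE) at 48 h (0.00788) and 0.52 at 96 h (0.0075). The call at 48 h was lost without 48 h replicate 2 (0.142), and that at 96 h without DMSO replicate 1 (0.0745) or 96 h replicate 2 (0.0956).

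SNHG8, on the plus strand of chromosome 4 (chr4:118278709-118279823), holds SNORA24 and had the lowest level in CPM. It measured 21.8 and 20.6 CPM with DMSO, then 20.1 and 20.1, 17.5 and 19.2, 16.3 and 19.0, and 16.8 and 14.7 after 12, 24, 48 and 96 h. The libraries at 12 h lay just under DMSO and those at 96 h were lowest on average. The log2 fold change was -0.08 at 12 h (adjusted p = 0.838), -0.21 at 24 h (0.465) and -0.27 at 48 h (0.237), none called, and -0.42 ± 0.14 (SE) at 96 h (0.0411, called). That call held only without DMSO replicate 2 or 48 h replicate 1, and was lost without any 1 of the other 8 libraries (adjusted p up to 0.198) and without both libraries that stand apart (0.13).

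The 96 h libraries were also compared with those at 12 h, a contrast that does not use DMSO. SNHG5 was called lower, the log2 fold change being -0.66 ± 0.12 (SE, adjusted p = 0.0014), 1 of 10 hosts beside 1.74% of tested genes. This call held without any 1 library (adjusted p up to 0.0358). SNHG15 (-0.42, 0.0662), GAS5 (-0.34, 0.0726), SNHG8 (-0.34, 0.184), SNHG16 (-0.24, 0.157) and ZFAS1 (-0.22, 0.186) were not called, although both libraries at 96 h lay below both at 12 h. Such a separation held for 6 of 10 hosts, SNHG5 included, beside 25.3% of tested genes. SNHG1 (-0.02 ± 0.10, SE), SNHG3 (0.00 ± 0.09), SNHG6 (-0.07) and SNHG12 (-0.08) differed by less than 1 SE. Without DMSO replicate 1, which enters only through the shared scaling and spread, 3 hosts were called, 3 also without DMSO replicate 2, and 2 without 96 h replicate 1. Between neighbouring times, edgeR called 0 hosts at 24 h against 12 h, 48 h against 24 h and 96 h against 48 h, beside 0%, 0.757% and 0.0366% of tested genes called in either direction. There 2, 1 and 4 hosts had an unadjusted p under 0.05, and DESeq2 and limma-voom called 0 as well.

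Several hosts share their span with other genes, and the strand setting of the counting is not given in the sources used here, so reads in shared stretches are uncertain. SNHG3 lies within the transcribed span of RCC1, which encodes the guanine nucleotide exchange factor of Ran, over 4913 bases of the same strand, and its RefSeq start is the annotated start of RCC1. RCC1 measured 98.9 and 119 CPM with DMSO, then 91.7 and 86.9, 87.2 and 79.0, 69.8 and 63.9, and 71.4 and 80.3 after 12, 24, 48 and 96 h. Its log2 fold change at 12 h was -0.28 (adjusted p = 0.149, not called). It fell by 0.39 at 24 h (0.0334), 0.70 at 48 h (0.00014) and 0.52 at 96 h (0.00113). The call at 24 h was lost without DMSO replicate 2 or any 1 library of the 12 or 24 h groups (adjusted p up to 0.418). SNHG3 was at its lower level from 12 h on, while RCC1 had its lowest mean at 48 h, and this difference in course was not tested.

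SNORA73B, a snoRNA inside SNHG3, held 6482 counts over the 10 libraries, while SNORA73A and most other snoRNAs inside the hosts held 0. It measured 79.3 and 102 CPM with DMSO, then 74.1 and 70.7, 76.1 and 71.3, 52.5 and 68.2, and 54.7 and 54.9 after 12, 24, 48 and 96 h. Its log2 fold change was -0.32 at 12 h (adjusted p = 0.152) and -0.30 at 24 h (0.178), neither called, and it fell by 0.59 at 48 h (0.00256) and 0.72 at 96 h (0.00019). The call at 48 h was lost without 48 h replicate 1 (0.102). Reads of the unspliced host or of RCC1 introns fall in the same place, so these values are not a measure of the mature snoRNA. In ZFAS1, SNORD12C (-0.67, 0.105) and SNORD12B (-0.74, 0.103) held 353 and 376 counts in all and were not called at 96 h.

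The tested neighbours on the opposite strand or nearby were not called at 96 h, and whether they differed from their hosts was not tested. ZNFX1, which overlaps ZFAS1 by 249 bases on the opposite strand, had a log2 fold change of -0.04 ± 0.11 (SE) at 96 h (adjusted p = 0.872). ZBTB37, which overlaps GAS5 by 801 bases on the opposite strand, had 0.12 ± 0.10 at 96 h (0.513). SLC3A2 beside SNHG1 had -0.05 (0.79), TRNAU1AP beside SNHG12 0.16 (0.489) and PRSS12 beside SNHG8 0.02 (0.952). PRCD beside SNHG16 rose by 0.51 at 48 h (0.0371) and had 0.00 at 96 h (0.994). Its call at 48 h was lost without either DMSO library or either 48 h library (adjusted p up to 0.16). GAS5-AS1 held 109 counts in all, and its log2 fold change of 0.73 at 96 h was not called (0.322).

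**Figure D3:**
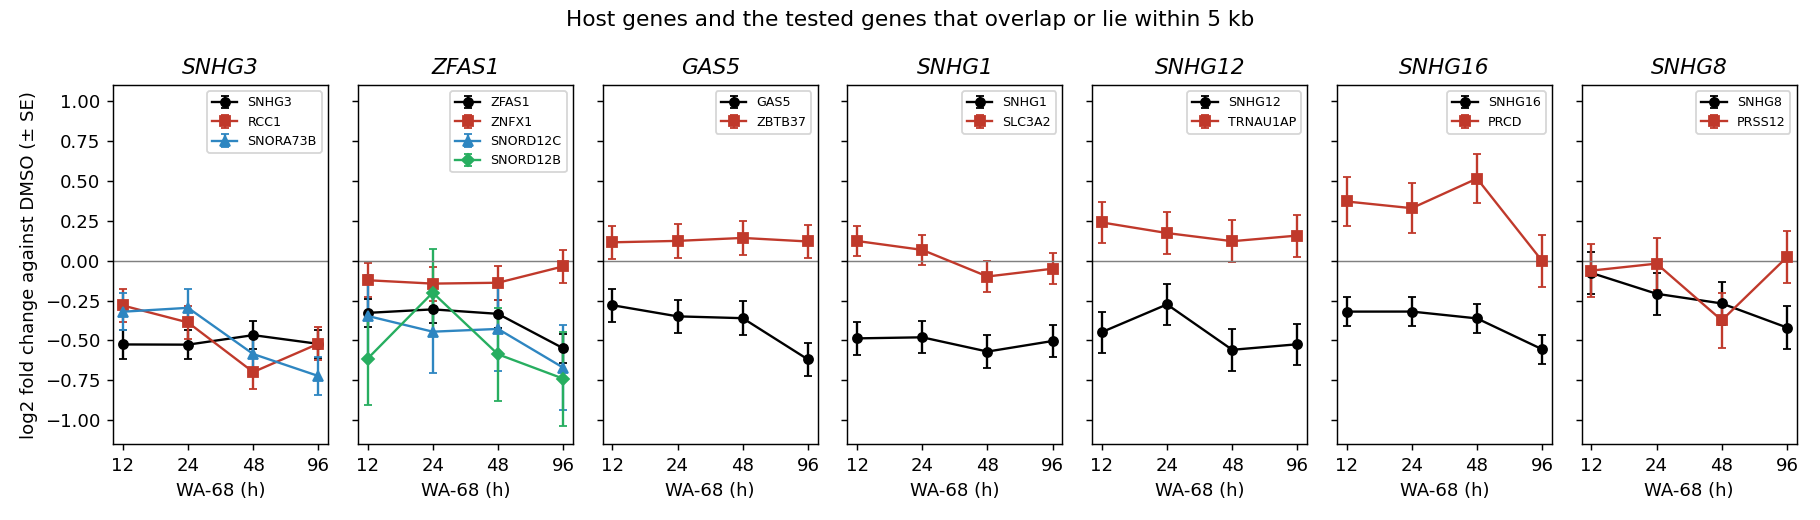
log2 fold change against DMSO, with bars of 1 SE from edgeR, of 7 hosts (black) and of tested genes that overlap them or lie within 5000 bases, at 12, 24, 48 and 96 h. GAS5-AS1 and an unnamed antisense gene beside SNHG16, both with few counts, are not drawn. RCC1 and SNORA73B lay below 0 with SNHG3, while ZNFX1, ZBTB37, SLC3A2 and TRNAU1AP lay closer to 0 than their hosts at 96 h.

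As a description of how the hosts ran together, log2 CPM was correlated over the 10 libraries for all 45 pairs. These points share the DMSO libraries and the treatment step. The median Pearson r was 0.78, from 0.18 to 0.94, and over the 5 group means it was 0.88. SNHG16 and ZFAS1 were most alike (0.94), followed by SNHG1 with SNHG3 (0.91), SNHG8 with GAS5 (0.91), SNHG15 with ZFAS1 (0.90) and SNHG5 with GAS5 (0.90). SNHG6 was least like the others, at most 0.58 with SNHG5. Among the other tested genes with a mean of at least 5 CPM, those whose log2 CPM ran most like the mean of the hosts were TFRC (r = 0.99), HEATR1 (0.98), PAICS (0.98), XPOT (0.97), SEH1L (0.97) and FKBP5 (0.97). TFRC encodes the transferrin receptor, HEATR1 a factor of ribosomal RNA transcription and processing, and PAICS an enzyme of purine synthesis. At 96 h TFRC fell by 0.93, HEATR1 by 0.43 and PAICS by 0.60 on the log2 scale, and each kept that call without any 1 library. XPOT fell by 0.33, SEH1L by 0.29 and FKBP5 by 0.53. All were picked for likeness to the hosts over the same 10 libraries. Their fall therefore follows largely from the choice and is no separate result. At 12 h TFRC, PAICS and FKBP5 were called lower, while HEATR1 (adjusted p = 0.136), XPOT (0.15) and SEH1L (0.377) were not. By r over the 5 group means the most alike were POLR1B and CLNS1A, then HEATR1, the only gene leading both rankings. MYC, a transcription factor known to drive ribosome biogenesis genes, fell by 1.12 ± 0.12 (SE) at 12 h (adjusted p = 4.93e-06) and 1.28 ± 0.12 at 96 h (1.34e-07), from 305 CPM with DMSO to 140 and 126, and its part in the levels of the hosts was not tested.

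Lists of related genes are given by counts and medians, and each count stands beside the share of all tested genes called lower, 1.92% at 12 h, 2.25% at 24 h, 5.38% at 48 h and 6.86% at 96 h. Of 17 tested non-coding snoRNA hosts outside the 10, 3, 3, 5 and 7 were called lower at 12, 24, 48 and 96 h, and 0 higher, with a median log2 fold change of -0.32 at 96 h, where that of all tested genes was -0.0083. SNHG17 (from 122 to 69.5 CPM) fell by 0.82 ± 0.09 (SE) at 96 h, SNHG4 by 0.68 ± 0.11, SNHG26 by 0.58 and SNHG29 by 0.38. Leaving out 1 library gave 1 to 3 calls at 12 h, the 1 without 12 h replicate 2, 1 to 3 at 24 h, the 1 without either 24 h library, and 5 to 7 at 96 h.

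Of 43 protein-coding genes with snoRNAs in their introns, many of them ribosomal protein genes, 5, 18, 28 and 34 were called lower and 0 higher. The shares of tested genes called lower were 1.92%, 2.25%, 5.38% and 6.86%, and the median of the list at 96 h was -0.45. NOP56 and DKC1 are in this list and also in the core lists below. RPL13A fell by 0.65 ± 0.08 (SE) at 96 h, RPL13 by 0.65, RPL4 by 0.61 and RPL10 by 0.58. RPL13A was at -0.09 (adjusted p = 0.626), RPL13 at -0.13 (0.503) and RPL10 at -0.01 (0.974) at 12 h, not called. Ribosomal protein genes have many processed pseudogenes, between which counting can split reads. The 12 h count was 0 without 12 h replicate 1 or 2, and 11 without both libraries that stand apart. At 24 h it was 0 without 24 h replicate 1 and 1 without 24 h replicate 2, at 48 h 2 without 48 h replicate 2, and at 96 h 29 to 36 on leaving out 1 library. Without 48 h replicate 2, the counts at 48 h of the lists above and below were lower in the same way, 1 for the non-coding hosts, 1 for the box C/D core, 0 for the box H/ACA core, 1 for the assembly factors and 0 for the trimming genes.

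Genes of snoRNA-binding proteins were among those called lower. All 4 box C/D core genes were called at 96 h: FBL, the methyltransferase, fell by 0.53 ± 0.10 (SE), NOP56 by 0.44, NOP58 by 0.35 and SNU13 by 0.33, with 0, 3 and 4 of 4 called at 12, 24 and 48 h. At 12 h, where 0 were called by edgeR, all 4 had an unadjusted p under 0.05. With the GC offset all 4 were called at 12 h. A fit of only the 4 libraries compared called fewer, 0, 0, 2 and 2 at the 4 times. At 24 h the count was 1 with upper-quartile factors, with library size as the only scaling, or with a replicate block. The count at 24 h was 0 without either 24 h library and 1 without any 1 library of the 12 or 48 h groups, and on leaving out 1 library 3 or 4 were called at 96 h. Of the 4 box H/ACA core genes, 1, 1, 3 and 2 were called lower: at 96 h DKC1, the pseudouridine synthase, fell by 0.43 and NHP2 by 0.48. The call at 12 h was lost without either 12 h or either 24 h library, and that at 24 h without either 24 h library. Leaving out 1 library gave 0 to 3 at 48 h. The count at 96 h was 1 without 96 h replicate 2, and 3 without 96 h replicate 1. Of 13 assembly factors, 2, 1, 5 and 6 were called lower, beside the shares of all tested genes given above, among them RUVBL1 (by 0.51 at 96 h), RUVBL2 (by 0.42), NOLC1 (by 0.51) and TCOF1 (by 0.41), a factor of ribosomal DNA transcription. With only the 4 libraries compared, the count of assembly factors at 96 h was 2.

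Of 14 nonsense-mediated decay factors, edgeR called 0 at any of the 4 times, with a median of 0.04 at 96 h. Of all tested genes, 1.92% were called lower and 1.23% higher at 12 h, and 6.86% and 6.14% at 96 h. Beside such shares, 0 of 14 does not show that these factors were unchanged. The unadjusted p was under 0.05 for 0, 0, 1 and 1 of them, and DESeq2 and limma-voom called 0 at each time. One was called lower at 48 h without DMSO replicate 1 or without both libraries that stand apart, and 1 higher at 96 h without DMSO replicate 2. SMG1, a kinase of this pathway, had a log2 fold change of -0.09 ± 0.09 (SE, adjusted p = 0.58) and CASC3, of the exon junction complex, -0.04 (0.856). Of 15 genes for intron debranching and snoRNA trimming, 0, 0, 3 and 1 were called lower, the 1 at 96 h being EXOSC7, an exosome subunit, which fell by 0.46. That is 1 of 15 where 6.86% of tested genes were called lower, a share near the background. The EXOSC7 call was lost without DMSO replicate 1, 96 h replicate 1 or 96 h replicate 2. Of 10 regulators of pyrimidine-tract mRNAs, 1, 1, 4 and 3 were called lower. Leaving out 1 library gave 0 to 4 at 12 h and 0 to 3 at 24 h, the 0 coming without either library of the time itself, and 1 to 5 at 48 h. The counts were 6, 6, 7 and 5 with the GC offset, and 4, 3, 5 and 3 with no filter. Other settings gave fewer at some times. Scaling by library size alone gave 0, 1, 2 and 2, and upper-quartile factors gave 1, 1, 1 and 3. Fitting just the 4 libraries of each comparison gave 1, 2, 1 and 1. EIF4EBP1, a translation repressor under mTOR, fell by 0.59 at 96 h, PABPC1 by 0.34 and CNBP by 0.33, and the count there was 1 without 96 h replicate 1 and 5 without DMSO replicate 2.

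**Figure D4:**
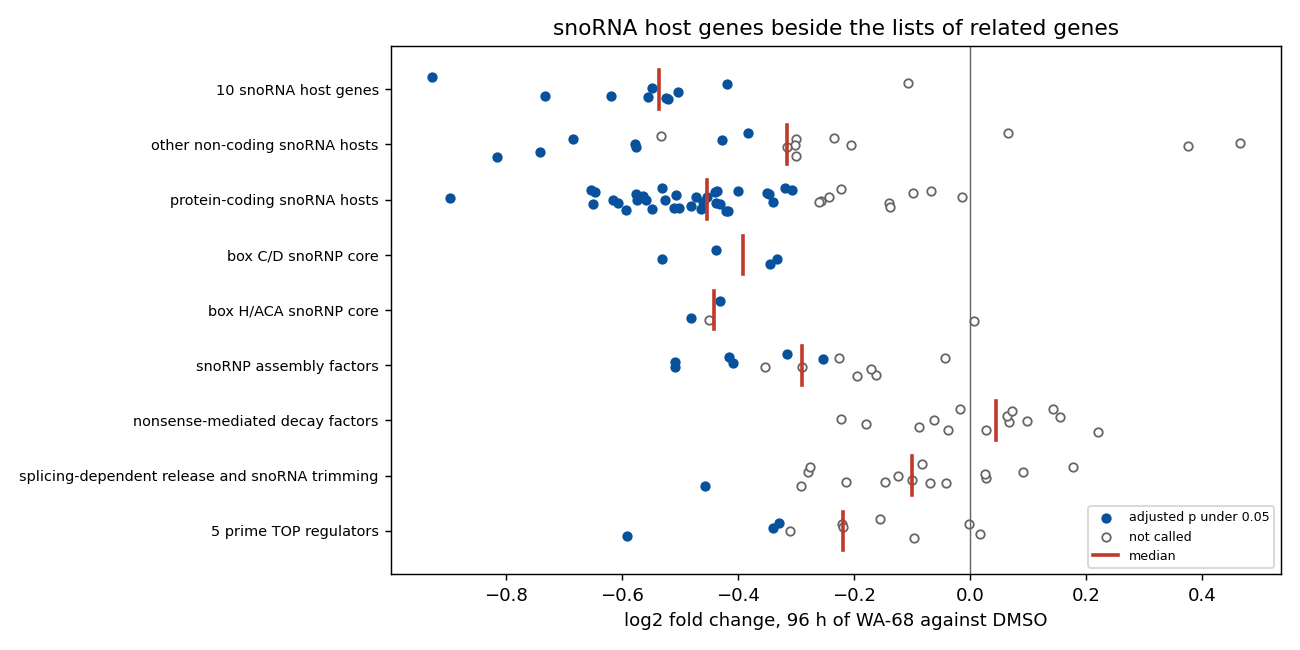
log2 fold change at 96 h of WA-68 against DMSO for each tested gene of the 10 hosts and of 8 lists of related genes, with a bar at the median of each list. Filled points are called (adjusted p under 0.05) and open points are not. The median was -0.54 for the 10 hosts, -0.45 for the protein-coding hosts and 0.04 for the nonsense-mediated decay factors.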

How the data were processed

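Poly(A) RNA of HS-SY-II cells was sequenced as paired ends in 10 libraries, 2 for each of 5 groups, grouped by the treatment and time in the labels. Per the submitters' processing notes, reads were handled with bcl2fastq, FastQC, Trim Galore and cutadapt, aligned to GRCh38 with STAR and counted with featureCounts. Versions, annotation release and strand setting were not given in the sources used here. Raw counts were deposited for 63140 gene identifiers, of which 62595 have a symbol and 58126 a position (GENCODE, GRCh38) in the tables used here. Totals of 7349744 to 13200051 counts per library set the precision.

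Genes kept by filterByExpr (16382) were fitted with 1 mean per group over all 10 libraries in edgeR 4.0.16 (R 4.3.3), with TMM scaling, a quasi-likelihood F test and Benjamini-Hochberg adjustment within a comparison. Residual and prior degrees of freedom were 5 and 18.5, and the biological coefficient of variation was 7.17%. Standard errors are the log2 fold change over the square root of F. The code was tested on simulated data. The p-values set a difference between group means against the spread of replicates, biological by their labels, within 1 line. That spread is shared in part over genes through the prior.

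The 10 genes, the 8 lists and the tests were chosen with earlier results of these data known. From each list the text names up to 4 genes with the smallest adjusted p among those called at 96 h, or the 2 most abundant where none was called. It further names tested neighbours within 5000 bases, the 6 genes most like the mean of the hosts, MYC and BRD9. Alternatives were other scalings (RLE, upper quartile, library size), no filter, a filter of 5 CPM in 2 libraries, DESeq2 1.42.0, limma-voom (limma 3.58.1), only the 4 libraries compared, an offset for GC content, a term for the replicate number, an adjusted p under 0.01 and each library left out. Promoter windows are from RefSeq.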

Additional observations from a re-analysis of the deposited data

Results flagged for a closer look

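In the test of 96 h against 12 h of WA-68, SNHG5 differed by a log2 fold change of -0.66 ± 0.12 (SE, adjusted p = 0.0014, edgeR). The labels give no harvest time for DMSO, so longer treatment and longer culture cannot be told apart here. SNHG5 measured 95.8 and 92.8 CPM at 12 h and 63.8 and 55.1 CPM at 96 h, both libraries at 96 h being the lower. It was the only 1 of the 10 hosts for which this test passed. The 2 DMSO libraries do not enter the difference, apart from the shared scaling and spread. Its cause was not tested.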

How the results depend on the processing

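Of the 10 hosts, 4, 4, 7 and 9 were called at 12, 24, 48 and 96 h, 1 at 96 h against 12 h and 8 in the joint test. At 12 h the count was 2 with library size as the only scaling, 2 at an adjusted p under 0.01, and 7 with an offset for GC content, 7 with that offset and a replicate block, and 7 without the 2 libraries that stand apart. At 24 h it was 7 with the GC offset, 7 with the offset and block, and 7 without those 2 libraries. At 48 h it was 4 at an adjusted p under 0.01. For 96 h against 12 h it was 2 with no filter, 4 with the GC offset and 4 with the offset and block. Leaving out each library in turn gave 0 to 6 at 12 h, 2 to 6 at 24 h, 3 to 8 at 48 h, 7 to 9 at 96 h, 1 to 3 for 96 h against 12 h, 7 to 8 in the joint test and 0 to 0 between neighbouring times. The causes were not tested. The labels do not say whether replicate numbers pair the libraries, and these data cannot decide it. A correlation of same-numbered deviations over 0.1 was seen in 1 of 10 pairs of groups (from -0.12 to 0.19). Best with their own number correlated 6 of 10 libraries, but the 2 libraries of a group mirror each other and always give the same answer. With a replicate block and no offset, 3, 3, 7 and 8 hosts were called at the 4 times, and 1 for 96 h against 12 h. The joint test was not run on 4 libraries only, since it needs all groups.

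Changes of sign were seen for uncalled values only. For 96 h against 12 h, SNHG1 was at 0.0011 with upper-quartile factors, 0.023 with the GC offset, 0.017 with offset and block, and 0.10 without the 2 libraries that stand apart, where SNHG12 was at 0.069. SNHG3 was at -0.012 with library size only, which put SNHG6 at 0.027 at 12 h against DMSO. On leaving out 1 library, SNHG5 at 12 h ranged from -0.26 to 0.15. SNHG6 ranged from -0.20 to 0.16 at 12 h, -0.23 to 0.13 at 24 h, -0.26 to 0.097 at 48 h and -0.27 to 0.092 at 96 h. For 96 h against 12 h, SNHG1 ranged from -0.15 to 0.096, SNHG3 from -0.058 to 0.064 and SNHG12 from -0.26 to 0.062. With 2 libraries per group and SEs near 0.1, the main fit called no host at a log2 change under about 0.3. Several larger changes were not called by edgeR either. Among these were SNHG12 at 12 h (-0.45, adjusted p = 0.0566) and GAS5 at 24 h (-0.35, 0.0638). SNHG15 at 96 h against 12 h (-0.42, 0.0662) was another.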
